A study of Mus musculus with 12 samples.

Results

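Macrophages limit their own inflammatory output by destroying cytokine mRNAs, and the genes described here encode 8 RNA-binding proteins known for deciding how long such mRNAs live. They were chosen by name: Zfp36, Zfp36l1, Zfp36l2, Zc3h12a, Zc3h12c, Rc3h1, Rc3h2 and Elavl1, 8 of the 43346 genes in the count table, and all 8 passed the filter on low counts. Proteins of the ZFP36 family bind AU-rich elements in 3′ untranslated regions (UTRs) and recruit the machinery that removes the poly(A) tail. Regnase-1 (Zc3h12a) and its relative Regnase-3 (Zc3h12c) are endonucleases, and Roquin-1 (Rc3h1) and Roquin-2 (Rc3h2) bind stem-loops in the same class of mRNA. HuR (Elavl1) also binds AU-rich elements but is best known for stabilizing the mRNAs that carry them, so it is the one gene of the 8 whose product usually works against decay.

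RNA was sequenced from cultured peritoneal macrophages of C57BL/6 mice, either wild type (WT) or lacking the scavenger receptor CD36 (CD36 KO). The cells were kept in medium (control) or given oxidized low-density lipoprotein (oxLDL), a modified lipoprotein that macrophages take up, at 20 µg/ml for 8 h. The 4 groups, WT control, WT oxLDL, CD36 KO control and CD36 KO oxLDL, had 3 libraries each, 12 in all. The labels do not say whether the libraries came from separate mice or cultures, how the macrophages were purified, or which part of Cd36 was removed, so the p-values describe variation among these libraries that could be technical only.

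The libraries held 35257762 to 65135955 counts. Levels are given as CPM, each gene's count relative to its library's total after TMM scaling, and as deposited RPKM, which divides by gene length and does not carry the TMM factors, where genes are compared with each other. The TMM factors were 0.729 to 0.864 in WT oxLDL and 0.962 to 1.18 in the other groups, so levels between groups differ between the scales, while shares and ratios within a library do not. Cd36 stood at 5265 to 5475 CPM in WT control and at 455 to 511 CPM in CD36 KO control. WT oxLDL replicate 1 stood apart: it correlated with the other libraries of its group at r = 0.952 to 0.953 across genes, against 0.988 to 0.995 elsewhere, and its median gene among tested genes of at least 5349 bases was 0.77 log2 units lower than in the rest of its group. CD36 KO oxLDL replicate 3 deviated the same way by 0.28. Zc3h12c, Rc3h1, Rc3h2 and Elavl1 are that long, with lengths of 6133, 11308, 11688 and 6030 bases in the count table. Short genes deviated upward: the median for tested genes of at most 1717 bases was 0.72 higher in WT oxLDL replicate 1. In CD36 KO oxLDL replicate 3 it was 0.26 higher. Zfp36 (1792 bases) and Zc3h12a (2882 bases) stood in WT oxLDL replicate 1 at 131% and 141% of the mean of its companions. The part of gene length in these values was not tested. Results are therefore given with and without WT oxLDL replicate 1. Summed markers of neutrophils were 6.88 to 8.13 CPM in control and 26.9 to 59.6 with oxLDL in WT, and 6.52 to 6.81 and 15.0 to 25.4, respectively, in CD36 KO, while the 9 macrophage markers summed to 15660 to 16032 CPM in control and 19860 to 34794 with oxLDL in WT, and 15270 to 16947 and 15625 to 19812, respectively, in CD36 KO. Of the 7 neutrophil markers, 3 passed the filter on low counts, and 2 had higher levels with oxLDL in each genotype (edgeR, adjusted p under 0.05). Without WT oxLDL replicate 1, 5 passed the filter and again 2 were higher. The median log2 fold change of these 5 was -0.46 in WT and -0.49 in CD36 KO, so the sum does not stand for the whole list. In bulk RNA, fewer cells of a type and less RNA per cell cannot be told apart.

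The AU-rich element is the site that ZFP36 proteins and HuR bind, and 6 of the 8 genes carry its core in their own mRNA. The nonamer TTATTTATT, the core that ZFP36 proteins are known to bind, occurred in the longest annotated 3′ UTR of 6 of the 8 genes (75.0%), against 1610 of 21037 mouse genes with an annotated 3′ UTR (7.65%, GENCODE M21). Elavl1 had 8 copies, and Zfp36, Zfp36l1, Zfp36l2, Rc3h1 and Rc3h2 had 1 each. Zc3h12a and Zc3h12c had none. Length matters for such a count, and the median 3′ UTR was 2948.5 bases for the 8 genes and 960 for all genes. Among genes with a 3′ UTR of similar length, 4.17% held the nonamer for Zfp36 (774 bases) but 28.2% for Rc3h1 (7181 bases). That share was 10.2% for Zfp36l1, 10.0% for Zfp36l2, 22.4% for Rc3h2, 18.0% for Elavl1, 4.73% for Zc3h12a and 17.4% for Zc3h12c. The first copy in each gene is printed here with 9 flanking bases on either side, in capitals for the nonamer, beside the first copies of Tnf and Cxcl2, both classical ZFP36 targets (GRCm38/mm10, written 5′ to 3′ on the gene's strand).
Zfp36, chr7:28376952-28376978, minus strand: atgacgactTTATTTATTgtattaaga
Zfp36l1, chr12:80108168-80108194, minus strand: actgttggaTTATTTATTttagaaatt
Zfp36l2, chr17:84184915-84184941, minus strand: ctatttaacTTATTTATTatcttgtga
Rc3h1, chr1:160970044-160970070, plus strand: ctttactcaTTATTTATTgagatgagg
Rc3h2, chr2:37373288-37373314, minus strand: aaagacattTTATTTATTttactctgt
Elavl1, chr8:4285789-4285815, minus strand: tcatgaaaaTTATTTATTtatttattt
Tnf, chr17:35199690-35199716, minus strand: ttgcacttaTTATTTATTatttattta
Cxcl2, chr5:90905317-90905343, plus strand: agagttcacTTATTTATTtatctatgt
In Elavl1 and Tnf the nonamer runs on into further ATTTA repeats, in Cxcl2 it overlaps a further ATTTA, and in Zfp36l2 a further ATTTA lies just before it, whereas in Zfp36, Zfp36l1, Rc3h1 and Rc3h2 no other ATTTA outside the nonamer lies within the bases shown. A match is a string of letters and not a measured binding site.

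OxLDL changed the levels of some of these mRNAs. In WT cells Zfp36, Zc3h12a and Zc3h12c rose and Zfp36l1 and Zfp36l2 fell, so that 3 of the 8 genes were called higher (18.1% of all genes tested were) and 2 lower (18.6% of all genes tested). In CD36 KO cells Zfp36, Zc3h12a, Zc3h12c and Elavl1 were called higher (4 of 8, against 11.6% of all genes) and 0 were called lower (15.7% of all genes). A gene is called at an adjusted p under 0.05 in edgeR's quasi-likelihood test with Benjamini-Hochberg adjustment over all 16281 genes tested, and every adjusted p for a gene below comes from that test unless another tool is named. The median log2 fold change of the 8 genes was -0.11 in WT and 0.07 in CD36 KO, beside -0.01 and -0.08 for all genes. The median therefore says little about them, because rises and falls cancel. Where libraries of different groups are said below not to overlap, the share of all genes without overlap was not counted.

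**Figure D1:**
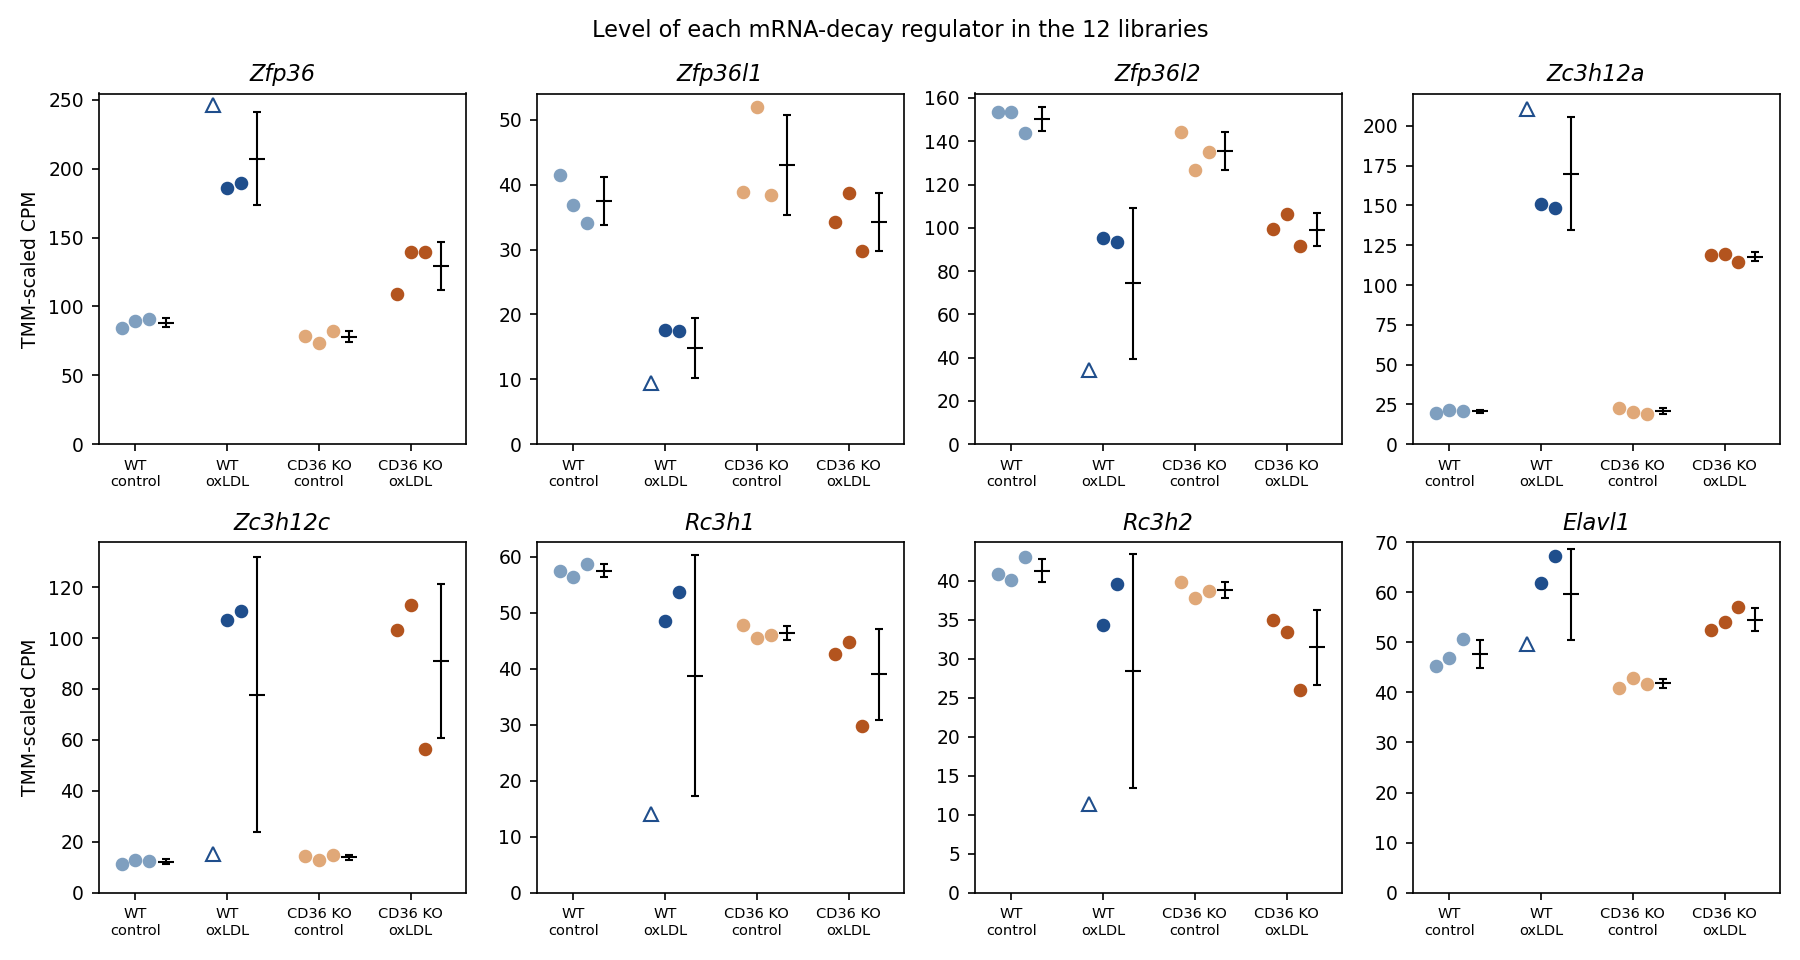
Level of each gene (TMM-scaled CPM, vertical axis from 0) in the 12 libraries; each symbol is 1 library, the open triangle is WT oxLDL replicate 1, and the bars give the mean ± SD of 3 libraries. Zc3h12a lies between 114 and 211 CPM in all 6 oxLDL libraries and between 19.3 and 23.0 CPM in all 6 control libraries, while the open triangle lies below the other WT oxLDL libraries for 6 of the 8 genes.

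Zfp36 encodes tristetraprolin, the founding member of the family and the regulator of Tnf mRNA. The gene (ENSMUSG00000044786) lies at chr7:28376784-28380253 on the minus strand. Its level was 84.7, 89.2 and 90.6 CPM in WT control and 246, 186 and 189.6 CPM in WT oxLDL. In CD36 KO it was 78.9, 73.6 and 81.9 CPM in control and 109, 139.5 and 139.2 CPM in oxLDL. All oxLDL libraries lay above all control libraries, and the CD36 KO oxLDL libraries lay between the controls and the WT oxLDL libraries without overlap. The log2 fold change was 1.23 ± 0.14 (SE, adjusted p = 3.78e-05) in WT and 0.73 ± 0.14 (adjusted p = 0.00241) in CD36 KO. Both calls held whichever library was left out, with adjusted p-values of at most 0.000478 and 0.0149. Without WT oxLDL replicate 1 the changes were 1.11 ± 0.10 (adjusted p = 1.41e-06) in WT and 0.73 ± 0.09 (adjusted p = 3.09e-05) in CD36 KO.

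Zfp36l1 and Zfp36l2 encode the close relatives of tristetraprolin that are known for restraining proliferation and shaping lymphocyte development. They moved the other way. Zfp36l1 (ENSMUSG00000021127, chr12:80107754-80113013, minus strand) was at 41.5, 36.8 and 34.2 CPM in WT control and at 9.43, 17.5 and 17.5 CPM in WT oxLDL. In CD36 KO it was at 38.8, 51.9 and 38.3 CPM in control and at 34.2, 38.7 and 29.8 CPM in oxLDL. The WT groups did not overlap and the CD36 KO groups did. The log2 fold change was -1.34 ± 0.23 in WT (adjusted p = 0.000854) and -0.33 ± 0.23 in CD36 KO (adjusted p = 0.325). The values without WT oxLDL replicate 1 were -1.08 ± 0.15 (adjusted p = 6.05e-05) and -0.33 ± 0.13 (adjusted p = 0.0481).

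Zfp36l2 (ENSMUSG00000045817, chr17:84183931-84187947, minus strand) stood at 153, 154 and 144 CPM in WT control, at 34.1, 95.3 and 93.6 CPM in WT oxLDL, at 144, 127 and 135 CPM in CD36 KO control, and at 99.7, 106 and 91.5 CPM in CD36 KO oxLDL. In both genotypes every oxLDL library lay below every control library. How many of all genes do so was not counted. The log2 fold change was -1.02 ± 0.29 in WT (adjusted p = 0.0186) and -0.45 ± 0.29 in CD36 KO (adjusted p = 0.296). Replicate 1 set much of the WT value and of the spread: without it the changes were -0.65 ± 0.08 (adjusted p = 3.57e-05) and -0.45 ± 0.07 (adjusted p = 0.000315). Leaving out WT control replicate 1 or 2 instead ended the WT call, with adjusted p-values of 0.0502 and 0.0511, as did a fit of the WT libraries alone (0.113).

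With these opposite movements the make-up of the ZFP36 family changed. The 3 genes together held 105 to 125 RPKM in the 12 libraries, with means of 109 ± 3.10 in control and 114 ± 4.50 with oxLDL in WT, and 111 ± 2.44 and 114 ± 8.84, respectively, in CD36 KO (SD, n = 3). On the TMM scale the sum was not as even: in CPM per kilobase it was 104 ± 1.46 in control and 142 ± 7.33 with oxLDL in WT, and 96.4 ± 1.82 and 112 ± 10.3, respectively, in CD36 KO. Zfp36 supplied 45.2%, 47.1% and 49.2% of that sum in WT control and 91.5%, 75.9% and 76.6% in WT oxLDL. In CD36 KO it supplied 45.0%, 43.5% and 47.2% in control and 60.6%, 64.4% and 68.4% in oxLDL. Zfp36 thus stood below its relatives combined in all 6 control libraries and above them in all 6 oxLDL libraries.

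Over both genotypes the Zfp36 share was 26.7 percentage points higher with oxLDL (exact two-sided permutation test within genotype, p = 0.005, the smallest that its 400 arrangements can give, adjusted p = 0.03 over 6 share tests). Over both media it differed by -9.40 points between CD36 KO and WT (exact two-sided permutation p = 0.015, adjusted p = 0.03). Those differences were, without WT oxLDL replicate 1, 24.2 and -6.87 points (exact permutation, adjusted p = 0.03 and 0.04). The genotype difference no longer passed, at an adjusted p of 0.05 by exact permutation, without WT control replicate 3, CD36 KO control replicate 1 or 2, or CD36 KO oxLDL replicate 1. In control medium the 2 genotypes overlapped, and with oxLDL all 3 CD36 KO libraries lay below all 3 WT libraries; whether the oxLDL shift differed between genotypes was not tested on this scale. The share of both relatives was lower with oxLDL: Zfp36l2 held 40.8 ± 1.01% in WT control and 15.1 ± 7.53% in WT oxLDL, and Zfp36l1 held 12 ± 1.13% and 3.55 ± 1.25%.

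**Figure D2:**
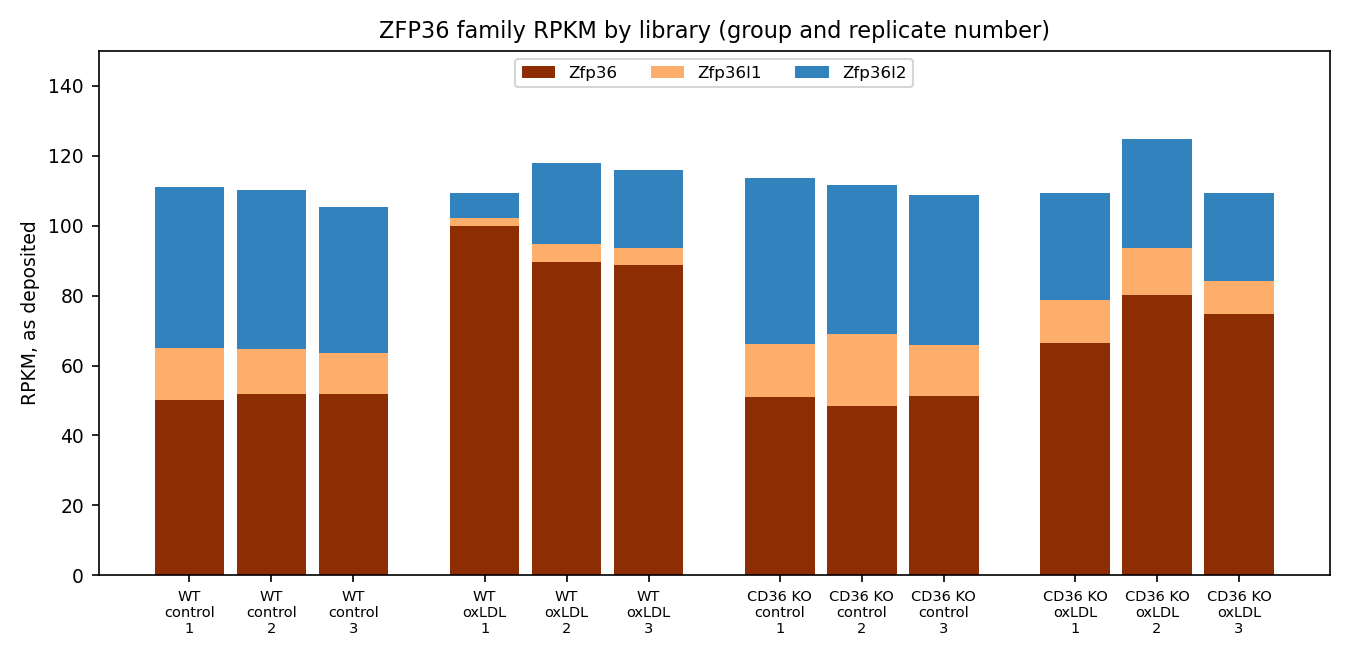
Deposited RPKM of Zfp36, Zfp36l1 and Zfp36l2 stacked for each of the 12 libraries (vertical axis in RPKM from 0, libraries named by group and replicate number). The stack, which carries no TMM scaling, is between 105 and 125 RPKM high, while the bottom block, Zfp36, takes 43.5% to 49.2% of it in control medium and 60.6% to 91.5% with oxLDL.

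Zc3h12a encodes Regnase-1, an endonuclease that cuts Il6 and Il12b mRNA and is itself destroyed upon Toll-like receptor and interleukin-1 signalling. It rose with oxLDL in both genotypes. The gene (ENSMUSG00000042677) lies at chr4:125118423-125127840 on the minus strand. Its level was 19.5, 21.8 and 20.8 CPM in WT control and 211, 151 and 149 CPM in WT oxLDL. In CD36 KO it was 23.0, 20.3 and 19.3 CPM in control and 119, 119.7 and 114 CPM in oxLDL. The groups with and without oxLDL did not overlap, and the fold between their means was 8.20 in WT and 5.64 in CD36 KO. The log2 fold change was 3.04 ± 0.16 (adjusted p = 6.88e-08) in WT and 2.50 ± 0.15 (adjusted p = 3.93e-07) in CD36 KO. Without WT oxLDL replicate 1 it was 2.87 ± 0.08 (adjusted p = 6.39e-11) and 2.50 ± 0.08 (adjusted p = 1.35e-10), respectively.

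Zc3h12c encodes Regnase-3, a macrophage-expressed relative of Regnase-1. The gene (ENSMUSG00000035164) lies at chr9:52111344-52168572 on the minus strand. It stood at 11.4, 13.1 and 12.3 CPM in WT control and at 15.3, 107 and 110 CPM in WT oxLDL. In CD36 KO it stood at 14.5, 12.9 and 14.7 CPM in control and at 103, 113 and 56.4 CPM in oxLDL. Replicate 1 of WT oxLDL, at 14.1% of the mean of the other libraries of its group, was close to the controls, and replicate 3 of CD36 KO oxLDL reached 52.1% of its companions. These are the libraries with lower values of long genes, and the part of transcript length in the low Zc3h12c values was not tested. The log2 fold change was 2.67 ± 0.56 (adjusted p = 0.00315) in WT and 2.70 ± 0.56 (adjusted p = 0.00383) in CD36 KO. Leaving out WT oxLDL replicate 1 gave 3.17 ± 0.22 (adjusted p = 1.13e-07) in WT. With that library left out, the fold between WT group means was 8.99 for Zc3h12c and 7.30 for Zc3h12a, a difference that was not tested.

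Per length, Zc3h12a remained the larger Regnase mRNA. It was at 7.49 ± 0.351 RPKM against 2.08 ± 0.128 for Zc3h12c in WT control, and at 42.0 ± 3.43 against 15.4 ± 5.67 in CD36 KO oxLDL. Its share of the Regnase pair was 78.3 ± 0.246% in control and 81.9 ± 12.8% with oxLDL in WT, and 76.0 ± 1.99% and 73.8 ± 6.44%, respectively, in CD36 KO. The share differed by 0.747 points between oxLDL and control (exact two-sided permutation p = 0.9) and by -5.19 points between CD36 KO and WT (p = 0.28), neither larger than the spread between libraries. Leaving out WT oxLDL replicate 1 turned the first difference to -2.95 points (exact permutation p = 0.145).

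Rc3h1 and Rc3h2 encode the Roquin pair, which recognises constitutive decay elements such as the one in Tnf mRNA. Neither was called with oxLDL in either genotype when all 12 libraries were used. Rc3h1 (ENSMUSG00000040423, chr1:160906418-160974978, plus strand) was at 57.5, 56.3 and 58.6 CPM in WT control, 14.1, 48.5 and 53.7 CPM in WT oxLDL, 47.8, 45.4 and 45.9 CPM in CD36 KO control, and 42.6, 44.7 and 29.7 CPM in CD36 KO oxLDL. Rc3h2 (ENSMUSG00000075376, chr2:37370069-37422903, minus strand) was at 40.9, 40.1 and 43.0 CPM, then 11.4, 34.3 and 39.5, then 39.9, 37.8 and 38.7, and then 34.9, 33.4 and 26.0 CPM in the same order. All oxLDL libraries of both genes lay below the control libraries of their genotype, and WT oxLDL replicate 1 held the lowest value of each. How many of all genes separate in this way was not counted.

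The log2 fold changes of Rc3h1 were -0.57 ± 0.37 in WT (adjusted p = 0.247) and -0.25 ± 0.37 in CD36 KO (adjusted p = 0.673). Those of Rc3h2 were -0.54 ± 0.33 (adjusted p = 0.23) and -0.30 ± 0.33 (adjusted p = 0.564). Without WT oxLDL replicate 1 the WT values shrank to -0.15 ± 0.13 and -0.15 ± 0.11, and Rc3h2 in CD36 KO was then called lower at -0.30 ± 0.10 (adjusted p = 0.027). Rc3h1 supplied 59.0 ± 0.415% of the pair's RPKM in control and 58.0 ± 1.69% with oxLDL in WT, and 55.3 ± 0.185% and 56.0 ± 1.96%, respectively, in CD36 KO. This share differed by -2.85 points between CD36 KO and WT (exact two-sided permutation p = 0.01, adjusted p = 0.03), with a difference of -0.163 points between oxLDL and control (exact permutation p = 0.815). The genotype difference reached only an adjusted p of 0.05 (exact permutation) without WT control replicate 3, CD36 KO oxLDL replicate 1 or CD36 KO oxLDL replicate 3.

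Elavl1 (ENSMUSG00000040028, chr8:4285382-4325413, minus strand) was at 45.3, 46.8 and 50.7 CPM in WT control and 49.6, 61.9 and 67.2 CPM in WT oxLDL. In CD36 KO it was at 41.0, 42.8 and 41.6 CPM in control and 52.4, 54.0 and 57.0 CPM in oxLDL. The CD36 KO groups did not overlap, and the WT groups overlapped through replicate 1. The log2 fold change was 0.32 ± 0.13 in WT (adjusted p = 0.0655) and 0.38 ± 0.13 in CD36 KO (adjusted p = 0.0432). The CD36 KO call did not hold in 10 of the 12 fits that left out 1 library, where the adjusted p reached 0.126, nor without a filter on low counts (0.108). Both genotypes were called without WT oxLDL replicate 1, at 0.46 ± 0.07 (adjusted p = 0.000244) and 0.39 ± 0.07 (adjusted p = 0.000453). Ccl25 overlaps Elavl1 by 204 bases on the opposite strand, and whether counting used the strand is not given in the sources used here; Ccl25 had 1150 counts over the 12 libraries.

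**Figure D3:**
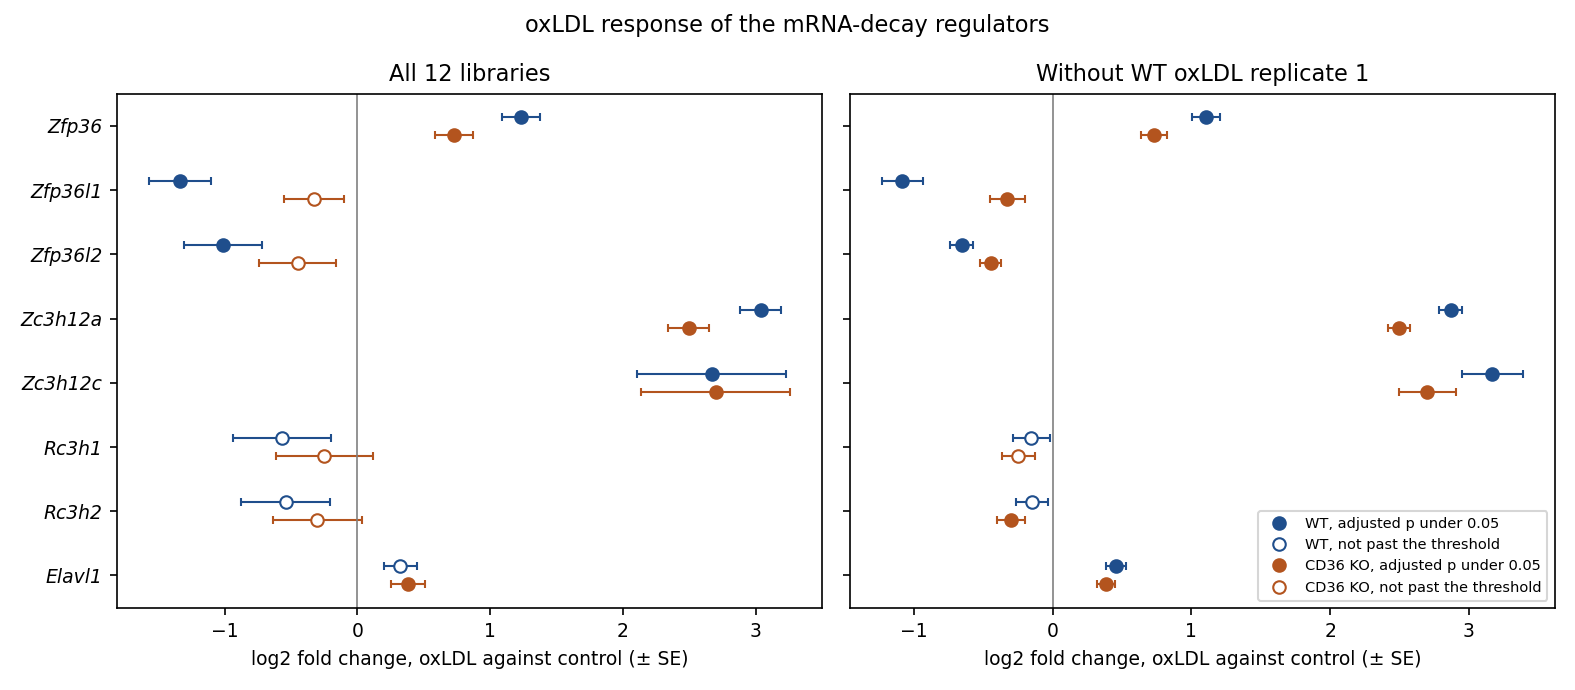
Log2 fold change of each gene between oxLDL and control (horizontal axis, ± SE) in WT and CD36 KO, on the left from all 12 libraries and on the right without WT oxLDL replicate 1; filled symbols passed an adjusted p under 0.05. Zc3h12a and Zc3h12c lie between 2.50 and 3.17, and leaving out the library shortens the error bars and moves Rc3h1 and Rc3h2 in WT to -0.15.

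Without WT oxLDL replicate 1, 4 of the 8 genes were higher and 2 lower in WT (24.3% and 24.4%, together 48.7%, of all 16636 genes then tested), and 4 were higher and 3 lower in CD36 KO (21% and 29%). Rc3h1 was the one gene called in neither genotype in that fit. Leaving out CD36 KO oxLDL replicate 3 as well gave 4 higher and 1 lower in CD36 KO, where 8372 of all genes were called in either direction.

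Zfp36 and Zc3h12a, whose products promote decay, are set here against Elavl1, whose product usually stabilizes mRNAs, as ratios within a library. Such ratios do not depend on library scaling, but they do not remove the deviation by gene length. Elavl1 has 6030 bases, Zfp36 1792 and Zc3h12a 2882. Zfp36 RPKM was 6.24 ± 0.208 times that of Elavl1 in control and 12.1 ± 3.98 times with oxLDL in WT, and 6.30 ± 0.449 times and 7.97 ± 0.862 times, respectively, in CD36 KO. For Zc3h12a over Elavl1 the ratios were 0.912 ± 0.0578, 6.20 ± 2.34, 1.05 ± 0.112 and 4.53 ± 0.292. The high values in WT oxLDL came from replicate 1 in both cases, at 16.7 and 8.88, and the other libraries of that group stood at 10.1 and 9.48, and at 5.09 and 4.62. These ratios were not tested.

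Ranked per length, Zfp36 was first of the 8 in all 4 groups, at 51.3 ± 1.0 RPKM in control and 92.7 ± 6.29 with oxLDL in WT, and 50.4 ± 1.58 and 73.7 ± 6.99, respectively, in CD36 KO. Zfp36l2 came second in both control groups, at 44.4 ± 2.34 and 44.3 ± 2.74 RPKM, and Zc3h12a took its place in both oxLDL groups, at 47.2 ± 5.34 and 42.0 ± 3.43 RPKM. In WT control the order below was Zfp36l1, Elavl1, Zc3h12a, Rc3h1, Rc3h2 and Zc3h12c, from 13.1 ± 1.54 down to 2.08 ± 0.128 RPKM, and no neighbours overlapped. In CD36 KO control Zc3h12a and Elavl1 overlapped, at 8.38 ± 0.871 and 8.01 ± 0.332 RPKM. In WT oxLDL the neighbours Zfp36l2 and Zc3h12c, Zc3h12c and Elavl1, Zfp36l1 and Rc3h1, and Rc3h1 and Rc3h2 overlapped, as did Zc3h12c and Zfp36l1, and Rc3h1 and Rc3h2, in CD36 KO oxLDL. Zc3h12c, lowest in both control groups, was the fourth in both oxLDL groups.

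In control medium 0 of the 8 were called between CD36 KO and WT by edgeR (11.2% of all genes were, 8.78% higher and 2.42% lower), 0 had an unadjusted p under 0.05, and DESeq2 and limma voom also called 0. The log2 differences, CD36 KO minus WT, were -0.17 for Zfp36, 0.20 for Zfp36l1, -0.15 for Zfp36l2, 0.01 for Zc3h12a, 0.20 for Zc3h12c, -0.31 for Rc3h1, -0.09 for Rc3h2 and -0.19 for Elavl1. In CPM, the CD36 KO control libraries of Zfp36, Rc3h1, Rc3h2 and Elavl1 all lay below the WT control libraries. In deposited RPKM, which carries no TMM factors, Zfp36, Rc3h2 and Elavl1 overlapped between these groups. Rc3h1 stayed apart, at 5.19 to 5.39 RPKM in WT control and 4.57 to 4.91 in CD36 KO control. The share of all genes without such overlap was not counted. A fit of the control libraries alone called Zfp36, Rc3h1 and Elavl1 (edgeR, adjusted p = 0.0276, 0.000761 and 0.0178). Among all genes that fit called 6684, beside 1823 in the fit of all 12 libraries. In the authors' deposited table Rc3h1 is lower by -0.28 with a false discovery rate of 0.000141.

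With oxLDL, Zfp36l1 was higher in CD36 KO (1 of 8, against 11.7% of all genes), and Zfp36 and Zc3h12a were lower (2 of 8, against 9.86%), so that 3 of 8 were called against 21.6% of all genes. For these 3 genes the WT oxLDL libraries lay farther from their controls, in CPM, than the CD36 KO oxLDL libraries did. The other genes were not called. Their log2 differences, CD36 KO minus WT, were 0.41 for Zfp36l2, 0.23 for Zc3h12c, 0.01 for Rc3h1, 0.15 for Rc3h2 and -0.13 for Elavl1.

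Under oxLDL, Zfp36l1 was 2.30-fold higher in CD36 KO than in WT between group means, with a log2 difference of 1.20 ± 0.23 (adjusted p = 0.00401), and 0.95 ± 0.15 without WT oxLDL replicate 1 (adjusted p = 0.00041). In the authors' deposited table the same difference is 1.29 with a false discovery rate of 0.00232. B cells are known to express Zfp36l1, and the 6 B cell markers summed to 14.6 to 27.6 CPM in WT oxLDL and 128 to 164 CPM in CD36 KO oxLDL, with 16.9 to 40.1 and 111 to 283 CPM in the control groups. The 6 mesothelial markers summed to 11.8 to 14.3 CPM in WT oxLDL, 25.8 to 32.2 in CD36 KO oxLDL, 22.3 to 42.5 in WT control and 48.2 to 94.0 in CD36 KO control. No marker of either list was without counts over the 12 libraries, and their part in the Zfp36l1 difference was not tested.

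Zfp36 was lower in CD36 KO under oxLDL by a log2 difference of -0.68 ± 0.14 (adjusted p = 0.00608), and by -0.55 ± 0.10 without WT oxLDL replicate 1 (adjusted p = 0.0011). The authors' deposited table gives -0.60 with a false discovery rate of 0.194. For Zc3h12a the difference was -0.53 ± 0.14 (adjusted p = 0.023), and -0.36 ± 0.08 without replicate 1 (adjusted p = 0.00397). The authors' deposited table gives -0.44 with a false discovery rate of 0.424. Of the 9 macrophage markers, 1 was higher and 4 were lower in CD36 KO under oxLDL, with a median of -0.60 beside -0.03 for all genes. In control medium 1 was higher and 2 were lower in CD36 KO, with a median of -0.51 beside 0.01 for all genes. The part of these markers in the Zfp36 and Zc3h12a differences was not tested. The Zc3h12a call was lost on leaving out CD36 KO oxLDL replicate 1, 2 or 3, with adjusted p-values of 0.0716, 0.0657 and 0.0554, and with upper-quartile scaling (0.0926). The Zfp36 call held whichever library was left out, with an adjusted p of at most 0.0311. Fits of the oxLDL libraries alone gave adjusted p-values of 0.0982 for Zfp36 and 0.18 for Zc3h12a (edgeR). In CPM, no WT oxLDL library of Zfp36 or Zc3h12a overlapped a CD36 KO oxLDL library. In deposited RPKM Zc3h12a overlapped, at 43.2 to 53.3 in WT oxLDL and 38.2 to 44.9 in CD36 KO oxLDL. Zfp36 stayed apart on that scale, at 88.6 to 99.97 and 66.3 to 80.2 RPKM. The share of all genes without such overlap was not counted. Without WT oxLDL replicate 1, Rc3h1 (-0.40 ± 0.13, adjusted p = 0.0318) and Elavl1 (-0.26 ± 0.07, adjusted p = 0.0155) were called lower as well, giving 1 of 8 higher and 4 lower (16.1% and 21.2%, together 37.3%, of all genes).

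Whether the oxLDL response itself differed between genotypes was tested by the interaction, CD36 KO response minus WT response. With all 12 libraries edgeR called 0 of the 8 genes (0.669% of all genes were called), 3 had an unadjusted p under 0.05, limma voom called 0, and DESeq2 called 1, Zfp36l1 (adjusted p = 0.0489). The interaction was 1.01 ± 0.32 for Zfp36l1 (adjusted p = 0.231), -0.51 ± 0.20 for Zfp36 (adjusted p = 0.373) and -0.54 ± 0.21 for Zc3h12a (adjusted p = 0.35). Each had the sign of a smaller response in CD36 KO cells. The others were 0.57 for Zfp36l2, 0.03 for Zc3h12c, 0.32 for Rc3h1, 0.24 for Rc3h2 and 0.06 for Elavl1. Without WT oxLDL replicate 1, Zfp36l1 was called at 0.75 ± 0.19 (adjusted p = 0.0359, 6.96% of all genes called, 1.56% higher and 5.4% lower), and Zc3h12a stood at -0.37 ± 0.11 (adjusted p = 0.0686).

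The start sites of Zfp36, Zc3h12a and Zc3h12c, the genes called higher with oxLDL in both genotypes, are shown as 300-base windows, 250 bases before to 50 after the RefSeq start (GRCm38.p6, gene strand). RefSeq windows were matched for 7 of the 8 genes, and for Zc3h12c the first of 2 windows is printed. Capitals mark the motif matches: in Zfp36 a CArG box, the element bound by serum response factor, 58 bases before the start, and in Zc3h12c an NF-kB consensus match on the reverse strand 236 bases before the start.
Zfp36, chr7:28379179-28379478, minus strand: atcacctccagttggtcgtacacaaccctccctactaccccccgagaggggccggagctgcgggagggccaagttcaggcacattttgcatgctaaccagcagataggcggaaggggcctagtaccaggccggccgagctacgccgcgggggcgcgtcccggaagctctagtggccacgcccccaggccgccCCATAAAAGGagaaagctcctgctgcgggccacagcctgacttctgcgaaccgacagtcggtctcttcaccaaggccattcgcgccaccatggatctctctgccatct
Zc3h12a, chr4:125127832-125128131, minus strand: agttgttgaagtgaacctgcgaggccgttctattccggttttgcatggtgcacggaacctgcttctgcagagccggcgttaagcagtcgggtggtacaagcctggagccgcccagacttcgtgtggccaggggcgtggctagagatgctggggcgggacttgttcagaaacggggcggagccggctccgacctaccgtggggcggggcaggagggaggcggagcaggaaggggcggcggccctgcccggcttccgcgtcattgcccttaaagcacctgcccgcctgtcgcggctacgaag
Zc3h12c, chr9:52168357-52168656, minus strand: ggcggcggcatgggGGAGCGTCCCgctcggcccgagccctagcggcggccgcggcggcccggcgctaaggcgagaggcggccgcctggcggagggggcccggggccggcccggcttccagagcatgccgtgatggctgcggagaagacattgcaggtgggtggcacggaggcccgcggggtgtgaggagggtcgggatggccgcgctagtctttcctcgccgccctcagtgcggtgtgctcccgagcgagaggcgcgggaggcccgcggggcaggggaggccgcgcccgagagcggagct
The motifs searched on both strands were the NF-kB consensus, the CArG box, the AP-1 element TGANTCA and the core of the interferon-stimulated response element. They occurred in 8.46%, 1.63%, 7.81% and 3.44% of all 32851 RefSeq promoter windows. Zc3h12a held none of the 4 in this window, and the second Zc3h12c window, which is not printed, held none of them either. Zfp36l1 held TGATTCA 129 bases and Rc3h1 TGACTCA 133 bases before the start, and Rc3h2 and Elavl1 held none. A motif match in a window is a description and not a measured binding site.

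Genes whose log2 CPM followed that of each gene most closely over the 12 libraries are given as a description, since the points fall into control and oxLDL libraries and the treatment difference enters every correlation. For Zfp36 they included Arl8a and Phf11a (Pearson r = 0.996 and 0.995). For Zc3h12a they were Vasp (0.998), Oasl1 and Lrrc75a (both 0.997), and for Zc3h12c they were Trim56 (0.990), Rhoq (0.989) and Map3k5 (0.988). For Zfp36l1 they were Nek2 (0.992), Enc1 (0.990) and Tacc2 (0.988), and for Zfp36l2 they were Klf9, Zfp60 and Acsl3 (0.994, 0.994 and 0.993). Rc3h1 was closest to Pank3 (0.997), Uhmk1 and Usp45 (both 0.995), Rc3h2 to Fam199x (0.997), Zkscan1 and Mib1 (both 0.995), and Elavl1 to Dcaf12 (0.981), Papd4 (0.977) and Taf1b (0.976). Among the 8 themselves, Rc3h1 and Rc3h2 were closest over the 12 libraries (r = 0.982). Without WT oxLDL replicate 1 that value was 0.926, below Zc3h12a with Zc3h12c (0.986) and Zfp36 with Elavl1 (0.958). Zfp36 ran with Zc3h12a (0.924) and against Zfp36l1 (-0.91), and the correlation of Zc3h12a with Zc3h12c was 0.785 with all libraries.

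The number of called genes in the machinery that these proteins recruit depended on WT oxLDL replicate 1. With all 12 libraries, 36.7% of all genes were called in WT and 27.4% in CD36 KO. Of 19 genes of CCR4-NOT and other deadenylation, 1 was higher and 4 were lower in WT, and 2 were higher and 3 lower in CD36 KO, with medians of 0.01 and -0.09 beside -0.01 and -0.08 for all genes. Btg1, an adaptor of the CCR4-NOT deadenylase, rose by 1.15 ± 0.16 in WT (adjusted p = 0.000159) and 1.44 ± 0.16 in CD36 KO (adjusted p = 3.93e-05). Tob1, another such adaptor, fell by 1.47 ± 0.20 (adjusted p = 0.000145) and 1.04 ± 0.19 (adjusted p = 0.00192). The deadenylase genes Pan2 (-0.45 ± 0.16 and -0.72 ± 0.16) and Parn (-0.60 ± 0.12 and -0.45 ± 0.12) were lower in both genotypes. Of 18 genes of decapping and 5′ to 3′ decay, 2 were higher and 1 lower in WT and 1 was higher in CD36 KO. The decapping enzyme gene Dcp2 was higher in both (0.76 ± 0.26 and 0.79 ± 0.26), and Edc3 (0.37 ± 0.10) and Lsm5 (-0.49 ± 0.17) were called in WT. Of 14 genes of the RNA exosome and the SKI complex, 2 were higher in WT and 3 in CD36 KO, Exosc10 (0.58 ± 0.12 and 0.46 ± 0.12) and Exosc3 (0.43 ± 0.15 and 0.45 ± 0.15) in both and Exosc1 (0.45 ± 0.14) in CD36 KO. Without WT oxLDL replicate 1 the deadenylation list had 7 higher and 6 lower in WT, the decapping list 8 and 1, and the exosome list 4 and 2, where 24.3% of all genes were higher and 24.4% lower. In CD36 KO that fit gave 4 and 8, 2 and 0, and 6 and 0, beside 21% and 29% of all genes.

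Of 13 tested genes for other RNA-binding proteins of this kind, 3 were higher and 1 lower in each genotype, near the shares of all genes called (36.7% in WT and 27.4% in CD36 KO). N4bp1, a ribonuclease gene, rose by 2.08 ± 0.15 in WT (adjusted p = 7.1e-07) and 1.35 ± 0.14 in CD36 KO (adjusted p = 2.72e-05). Arid5a, whose product is known for protecting Il6 mRNA from Regnase-1, rose by 2.02 ± 0.24 (adjusted p = 5.55e-05) and 1.08 ± 0.24 (adjusted p = 0.00514). Hnrnpd, which encodes the AU-rich element binding protein AUF1, rose by 0.65 ± 0.12 and 0.61 ± 0.12. Tia1, a translational silencer gene, fell by 0.76 ± 0.25 in WT (adjusted p = 0.0306) and stood at -0.49 ± 0.24 in CD36 KO (adjusted p = 0.167).

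Most genes of the signalling that acts on these proteins were called. Of 17 genes, 11 were higher and 1 lower in WT and 9 were higher and 2 lower in CD36 KO, with medians of 0.63 and 0.41 beside -0.01 and -0.08 for all genes. Among all genes 18.1% were higher and 18.6% lower in WT, and 11.6% and 15.7% in CD36 KO. Mapkapk2, the kinase known to inactivate tristetraprolin, rose by 2.56 ± 0.12 in WT (adjusted p = 3.69e-08) and 2.17 ± 0.12 in CD36 KO (adjusted p = 1.81e-07). Malt1, the protease known to cleave Regnase-1 and the Roquins, rose by 2.68 ± 0.29 (adjusted p = 2.56e-05) and 3.28 ± 0.30 (adjusted p = 8.82e-06). Ikbke, a kinase gene, rose by 1.77 ± 0.18 and 1.09 ± 0.18. Map2k6, an upstream kinase of p38, fell by 2.57 ± 0.37 and 2.17 ± 0.36. RNA levels say nothing of the phosphorylation or cleavage through which these enzymes act.

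Most of the mRNAs that these proteins are known to destroy rose with oxLDL. Of 20 mRNAs known as ZFP36 targets, 18 were higher and 0 lower in each genotype, against 18.1% and 18.6% of all genes in WT and 11.6% and 15.7% in CD36 KO, with median log2 fold changes of 3.99 in WT and 4.93 in CD36 KO. The largest were Il1b (10.77 ± 0.65 and 10.57 ± 0.64), Cxcl3 (9.79 ± 0.42 and 10.91 ± 0.44), Cxcl2 (7.27 ± 0.17 and 8.32 ± 0.17) and Ptgs2 (7.0 ± 0.61 and 7.25 ± 0.61), whose mean levels in control medium were at most 2.30 CPM. Of 11 tested Regnase-1 or Roquin targets, 8 were higher in WT and 9 in CD36 KO, against 18.1% and 11.6% of all genes, with medians of 6.56 and 6.54. The target lists overlap: Il6, Tnf, Nfkbiz, Cxcl1, Il1b and Ptgs2 are on both, so their counts are not separate. Besides Il1b and Ptgs2, given above, the largest were Il12b (7.88 ± 0.70 and 8.26 ± 0.69) and Lcn2 (7.74 ± 0.34 and 6.84 ± 0.33). The nonamer TTATTTATT was present in the annotated 3′ UTR of 9 of the 20 ZFP36 targets (45.0%) and 4 of the 12 Regnase-1 or Roquin targets (33.3%). Among all genes with an annotated 3′ UTR the share was 7.65%. The median 3′ UTR length was 673.5 and 780.5 bases in these lists and 960 among all genes. Tnf, Ptgs2 and Cxcl1 hold the nonamer and are counted in both lists. Steady-state RNA does not separate synthesis from decay, and no decay rate was measured.

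**Figure D4:**
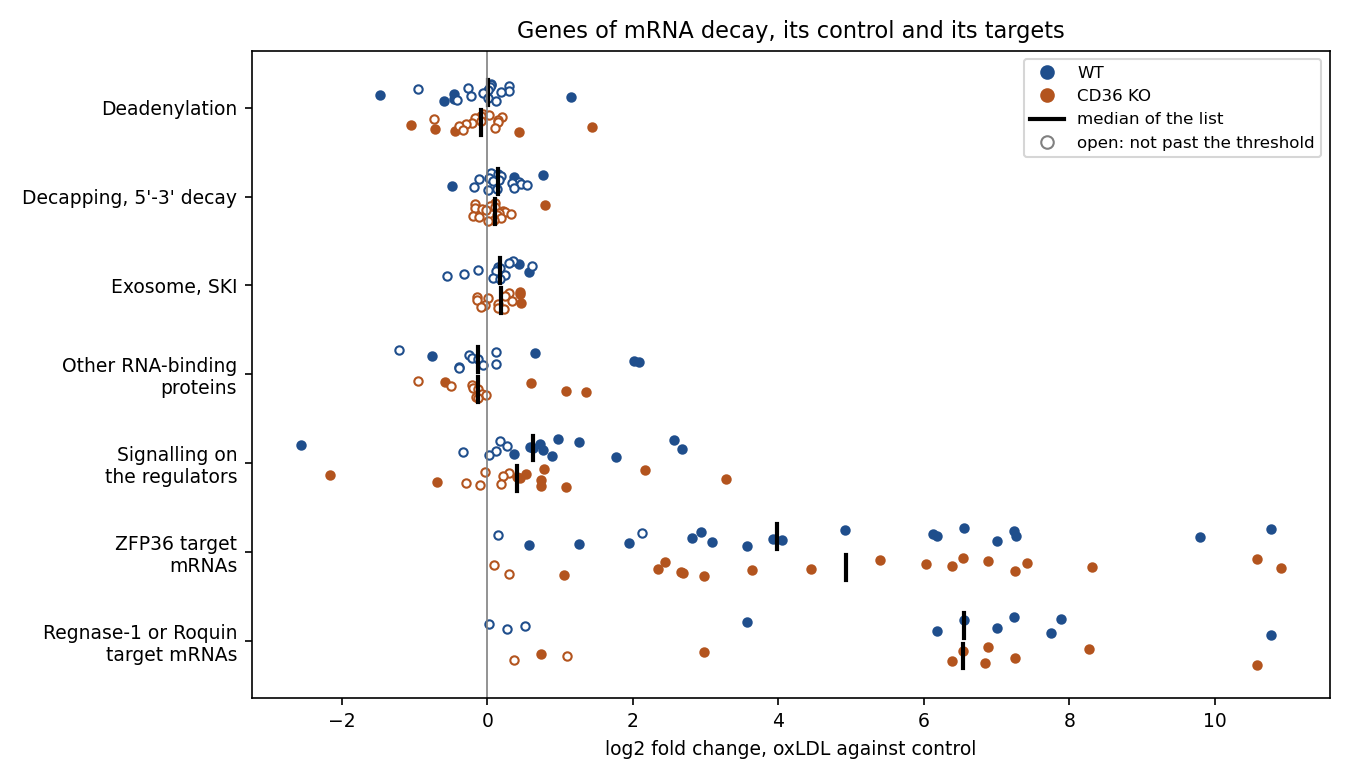
Log2 fold change between oxLDL and control (horizontal axis) of each tested gene of 7 lists, in WT and CD36 KO; each point is 1 gene, filled where the adjusted p was under 0.05, and the black bar is the median of the list. The medians of the 3 lists of decay machinery lie between -0.09 and 0.19, and those of the ZFP36 targets lie at 3.99 and 4.93.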

How the data were processed

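RNA of 12 mouse macrophage libraries in 4 groups of 3 was sequenced by the authors, and library titles gave the groups. Raw whole-number read counts per gene, deposited without normalization, were the input of every gene test. The RPKM values in the same table were computed by the authors and were used for comparisons between genes. Fold changes on the log2 scale and false discovery rates (adjusted p-values) from the authors' deposited comparisons are printed where credited. The submitters' processing notes name the build mm10 and the quality tool FastQC; for aligner, counting program and annotation the sources used here give no name. Coordinates are those of GENCODE M21 on the same assembly, which held 42462 of the 43346 gene identifiers (98.0%).

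Low counts were removed with filterByExpr (minimum count 10, minimum total 15), libraries were scaled with TMM, and a robust quasi-likelihood model with group means was fitted over the 12 libraries (edgeR 4.0.16, R 4.3.3). Each SE was obtained as |log2 fold change| / sqrt(F). Correlations used log2 CPM with a prior count of 2. Shares of RPKM were tested by exact permutation within the other factor (Python 3.11.15). Alternatives used DESeq2 1.42.0, limma 3.58.1, upper-quartile factors, no filter, the groups of a contrast alone, a replicate block, removal of the gene-length trend, a fit that was not robust, and each library left out. Procedures were tested on simulated data. Intervals and tests cover these libraries only, and depth of at least 35257762 counts gave every one of the 8 genes a level of at least 9.43 CPM in each library.

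All 8 genes are named in every comparison; in each list the 4 called genes with the largest mean oxLDL change and those called in the interaction are named, and for each gene its 3 closest correlates, of which 1 is not reported here. The genes, lists and motifs were chosen with earlier results of these data known. The lists cover deadenylation, decapping, the exosome, other RNA-binding proteins, signalling, targets and markers of macrophages, B cells, T cells, neutrophils, mast cells and mesothelial cells. T cell markers summed to 1.68 to 6.14 CPM and mast cell markers to 1.74 to 7.84 CPM over the 12 libraries. Replicate libraries all differed by more than sampling noise (chi-square per degree of freedom at least 3.0).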

Additional observations from a re-analysis of the deposited data

Results flagged for a closer look

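Among the genes of the pathway and marker lists, 3 had oxLDL responses that differed between the genotypes by the interaction test (0.669% of all genes tested did). The values use all 12 libraries, and those without WT oxLDL replicate 1 are not given for these 3 genes. Interaction calls among all genes depended on the libraries, from 40 without WT control replicate 3 to 1158 without WT oxLDL replicate 1. Dusp1, which encodes a phosphatase that switches off p38, rose by 1.26 ± 0.11 in WT (adjusted p = 3.65e-06, edgeR) and stood at 0.30 ± 0.11 in CD36 KO (adjusted p = 0.0634). Its interaction was -0.96 ± 0.15 (adjusted p = 0.0169). Cxcl2, a neutrophil chemokine gene and ZFP36 target, rose by 7.27 ± 0.17 in WT and 8.32 ± 0.17 in CD36 KO, with an interaction of 1.05 ± 0.19 (adjusted p = 0.0313, edgeR). Mean Cxcl2 levels went from 1.69 CPM in control to 261 CPM with oxLDL in WT, and from 1.86 to 593 CPM in CD36 KO. Fcgr1, a macrophage marker that encodes an Fc receptor, rose by 2.52 ± 0.28 in WT (adjusted p = 3.34e-05) and stood at 0.24 ± 0.27 in CD36 KO (adjusted p = 0.569), with an interaction of -2.28 ± 0.39 (adjusted p = 0.0226, edgeR).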

How the results depend on the processing

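Counts of called genes among the 8, and among the 4 lists of decay proteins, moved with the libraries and samples used, while the counts for signalling and both target lists stayed within 1.5 times of the reported ones in every alternative. Causes were not tested. Calls among the 8 under fits of the contrast's groups alone were 3 for CD36 KO against WT in control medium and 1 under oxLDL, and DESeq2 called 1 interaction. Leaving out WT oxLDL replicate 1 and CD36 KO oxLDL replicate 3 together, an alternative chosen after seeing the data like the fit that was not robust, gave 4, 5 and 3, the interactions being Zfp36 (-0.44), Zfp36l1 (0.84) and Zc3h12a (-0.36). Calls also rose among all genes, to 7019 between genotypes in control medium, 8119 under oxLDL and 2478 for the interaction. With all 12 libraries these were 1823, 3512 and 109.

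Deadenylation calls were 3 in WT and 8 in CD36 KO from the groups alone, 11 and 8 with the length trend removed, and 16 and 12 without both libraries. Decapping calls in WT were 1 with upper-quartile factors, 1 without a filter, 0 from the groups alone, 1 with a replicate block, 5 with the length trend removed and 10 without both; in CD36 KO they were 0 with limma voom, 0 with the block, 2 with the length trend removed and 6 without both. Exosome calls in WT were 1 with upper-quartile factors, 5 with DESeq2, 1 without a filter, 1 from the groups alone, 1 with the block, 4 with the length trend removed and 9 without both; in CD36 KO they were 1, 1 without a filter, 6 from the groups alone, 6 with the length trend removed and 8 without both. The other RNA-binding list had 8 and 7 without both.

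Leaving out 1 library at a time gave 4 to 6 calls among the 8 in WT and 3 to 7 in CD36 KO, 0 between genotypes in control medium, 2 to 5 under oxLDL and 0 to 1 for the interaction. For the lists the ranges in WT and CD36 KO were 3 to 13 and 3 to 12 for deadenylation, 0 to 9 and 0 to 2 for decapping, 1 to 6 and 0 to 6 for the exosome, 3 to 7 and 3 to 7 for other RNA-binding proteins, 11 to 13 and 9 to 15 for signalling, 17 to 19 and 18 to 19 for ZFP36 targets, and 8 to 9 and 8 to 11 for Regnase-1 or Roquin targets. The Zfp36 share ranged from 24.2 to 28.0 points for oxLDL and -10.7 to -6.87 for genotype, the Zc3h12a share from -2.95 to 2.70 and -7.14 to -1.49, and the Rc3h1 share from -0.677 to 0.303 and -3.36 to -2.39.

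Sign changes concerned differences that were not called with all libraries. Zc3h12a between genotypes in control medium was -0.046 with DESeq2, -0.0067 without a filter, -0.037 with the length trend removed and -0.065 to 0.063 with 1 library left out. Under oxLDL, CD36 KO minus WT for Rc3h1 was -0.017 with DESeq2, -0.0096 without a filter, -0.24 with the length trend removed and -0.25 without both, with -0.40 to 0.31 when 1 library was left out. For Rc3h2 it was -0.12 with the length trend removed and -0.13 without both (-0.24 to 0.45), and for Zc3h12c -0.03 without both (-0.28 to 0.56). The interaction without both was -0.22 for Zc3h12c (-0.47 to 0.37 with 1 left out), -0.04 for Rc3h2 (-0.15 to 0.55) and -0.11 for Elavl1, which was -0.025 with the length trend removed (-0.070 to 0.16); for Rc3h1 the range was -0.092 to 0.62.

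Replicate numbers did not pair the libraries: 2 of 18 same-number pairs correlated above 0.1. With the replicate block, 44 rather than 109 genes were called in the interaction, and the shares (26.7, -9.40 and -2.85 points) had an exact permutation p of 0.03125 (adjusted 0.0625), the smallest possible. Upper-quartile scaling moved the median of all genes in WT from -0.01 to -0.13. Genes called by the groups alone were 3687 rather than 5980 in WT, 6684 rather than 1823 between genotypes in control medium and 1191 rather than 3512 under oxLDL; DESeq2 called 535 interactions.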
